A study of Mus musculus with 16 samples.

Results

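The miR-15 and miR-16 seed family was followed in mouse dorsal skin through its 6 members on the array, mmu-miR-15a, mmu-miR-15b, mmu-miR-16, mmu-miR-195, mmu-miR-322 and mmu-miR-497, out of 577 miRNAs. Members were chosen by name because they share one seed and come from several loci, and no signal threshold entered the choice. The list was drawn up with earlier results of these arrays known, so the lower miR-322 in irradiated knockout skin is not independent support for anything. The animals were hairless albino female mice on the mixed background SKH1-C57/Bl6-SV129. All of them were either Ppard+/+ (WT) or Ppard-/- (KO), littermates according to the methods, where Ppard encodes the nuclear receptor PPARβ/δ. They were left without irradiation, with sham handling and matched age per the methods, or were exposed to UVB for 12 weeks at 70 mJ/cm2 per exposure, given 3 times a week, with lesion-free skin then collected. This gave 4 groups of 4 single-colour miRNA arrays, WT UV and KO UV for the irradiated animals and WT no UV and KO no UV for the others. Ppard mRNA is not on a miRNA array, and the genotype rests on the labels.

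A miRNA guides Argonaute to messenger RNAs that pair with its seed, bases 2 to 8 from the 5′ end, and lowers the output of those messages. The miR-15/16 seed family is best known for restraining cell division and survival, with D-type and E-type cyclins and the anti-apoptotic protein BCL2 among its studied targets. In skin, cycling keratinocytes of the basal layer and hair follicle depend on those cyclins, and repeated UVB makes the epidermis proliferate and thicken. Because members have the same seed, they can act on overlapping sets of messages, while each locus is transcribed on its own.

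The mature sequences are shown because the seed defines the family and the 3′ part is where its members differ. They were taken from RefSeq (GRCm38.p6), in which all 6 members were matched, and capitals mark bases 2 to 8.
miR-15a: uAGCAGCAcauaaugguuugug
miR-15b: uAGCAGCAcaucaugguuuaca
miR-16: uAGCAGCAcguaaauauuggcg
miR-195: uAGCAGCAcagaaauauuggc
miR-497: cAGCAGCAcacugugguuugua
miR-322: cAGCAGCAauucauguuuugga
miR-503: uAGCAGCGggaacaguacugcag
The 6 members carried the same 7 capitals, whereas miR-503, the neighbour of miR-322, ended its seed in another base and was left out of the family. Of 1679 mature mouse miRNAs in the RefSeq table, 10 held the family seed at these positions, and the 6 members were the ones on the array. Counted position by position from the 5′ end, miR-16 and miR-195 matched at 19 of 21 bases although they come from different chromosomes. The paralogues miR-15a and miR-15b matched at 18 of 22. By contrast, miR-195 and miR-497, which are made from the same locus, matched at 12 of 21, and miR-195 and miR-322 at 11 of 21.

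The array annotation, on the mm9 build, placed the probes of miR-15a at chr14:62250912-62250933 and those of miR-16 at chr14:62250773-62250790. MiR-15b was placed at chr3:68813699-68813718, with 1 of its 2 probes unmapped. MiR-497 was placed at chr11:70048234-70048253 and miR-195 at chr11:70048566-70048584, and miR-322 at chrX:50407483-50407504. These intervals are probe positions and need not span the whole mature miRNA. In RefSeq the hairpins of miR-15a and miR-16 on chromosome 14 sit within Dleu2, a long noncoding RNA gene, and are 54 bases apart. Those of miR-15b and the other miR-16 copy on chromosome 3 sit within Smc4, a condensin subunit gene, and are 66 bases apart. MiR-322 and miR-503 lie within C430049B03Rik on chromosome X. Both miR-16 genes give the same mature sequence, so the miR-16 signal could not be divided between chromosomes 14 and 3. Each member was read by 2 probes with 10 spots per probe.

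All 6 members were detected on 16 of 16 arrays. Total gene signal, the background-subtracted intensity summed over the spots of a miRNA, ranged across arrays from 2646 to 5381 units for miR-16 and from 1613 to 3390 for miR-15a. It ranged from 1014 to 2143 for miR-15b, from 1126 to 2398 for miR-195 and from 744 to 1688 for miR-497. For miR-322 it ranged from 132 to 319. Probes differ in efficiency, so these ranges do not order the members by abundance. The scanner software put the error of a member's signal at 7.09% to 9.80% of it.

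Facts of the whole array set bear on every value that follows. Total signal per array ran from 170979 to 395200 units, and KO no UV was the brightest group (254694 to 395200) against 200905 to 231139 in KO UV. All 8 irradiated arrays were on one slide and all 8 non-irradiated arrays on the other, so irradiation and slide cannot be told apart. On the irradiated slide the WT and KO arrays also occupied different rows, so genotype after irradiation cannot be told apart from the row. Local background was 118.6 to 130.1 units on the irradiated slide and 62.8 to 79.6 on the other. Signals were quantile normalized, which assigns values by rank, so a member took the same value on arrays where it held the same rank. In bulk skin, fewer cells of a type and less RNA per cell cannot be told apart. What a replicate was is not stated in the labels, while the methods speak of 4 animals per group, so p-values measure the spread between these arrays.

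The levels below are log2 normalized signals of replicates 1 to 4. At the chromosome 14 locus, miR-15a read 11.27, 11.04, 11.04 and 11.20 in WT no UV and 10.97, 10.97, 10.89 and 11.20 in KO no UV. After irradiation it read 11.50, 11.50, 11.50 and 11.27 in WT and 11.27, 11.27, 11.20 and 11.50 in KO. Its irradiated arrays were thus mostly higher in both genotypes, with at least one array per group touching the range of the non-irradiated arrays. MiR-16, shared with chromosome 3, read 11.86, 11.86, 11.86 and 11.73 in WT no UV and 11.58, 11.73, 11.73 and 11.86 in KO no UV. It read 11.94, 11.86, 11.86 and 11.94 in WT UV and 11.94, 11.86, 11.86 and 12.09 in KO UV. All 4 groups of miR-16 met at 11.86, the value of one shared rank.

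MiR-15b, the chromosome 3 member, read 10.36, 10.47, 10.53 and 10.29 in WT no UV and 10.04, 10.47, 10.22 and 10.47 in KO no UV. After irradiation it read 10.61, 10.65, 10.61 and 10.72 in WT and 11.04, 10.47, 10.79 and 10.89 in KO. In WT the irradiated and non-irradiated arrays did not overlap, while in KO replicate 2 of the irradiated group met the 2 highest non-irradiated arrays.

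At the chromosome 11 locus, miR-195 read 10.57, 10.61, 10.57 and 10.57 in WT no UV, then 10.72, 10.72, 10.65 and 10.65 in KO no UV. It read 10.72, 10.79, 10.79 and 10.61 in WT UV and 10.79, 10.61, 10.36 and 10.79 in KO UV. The non-irradiated genotypes did not overlap, KO being higher, and KO UV spread over the whole range. Its neighbour miR-497 read 10.25, 10.18, 10.14 and 10.25 in WT no UV and 10.09, 10.25, 10.25 and 10.29 in KO no UV. It read 10.33, 10.18, 10.22 and 10.18 in WT UV and 10.25, 10.29, 10.04 and 9.95 in KO UV. All 4 groups of miR-497 overlapped.

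On chromosome X, miR-322 read 7.85, 7.69, 7.50 and 7.75 in WT no UV and 7.55, 7.69, 7.75 and 7.66 in KO no UV. After irradiation it read 7.80, 8.01, 7.85 and 7.97 in WT and 7.55, 7.55, 7.59 and 7.27 in KO. Every KO UV array was below every WT UV array, whereas the non-irradiated genotypes overlapped. When the 4 groups of each member were ordered by mean, the neighbouring groups overlapped in range in every case but one, miR-15b between WT no UV and WT UV. How many of all tested miRNAs have groups without overlap is not given here, so overlap and its absence only describe these members.

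**Figure D1:**
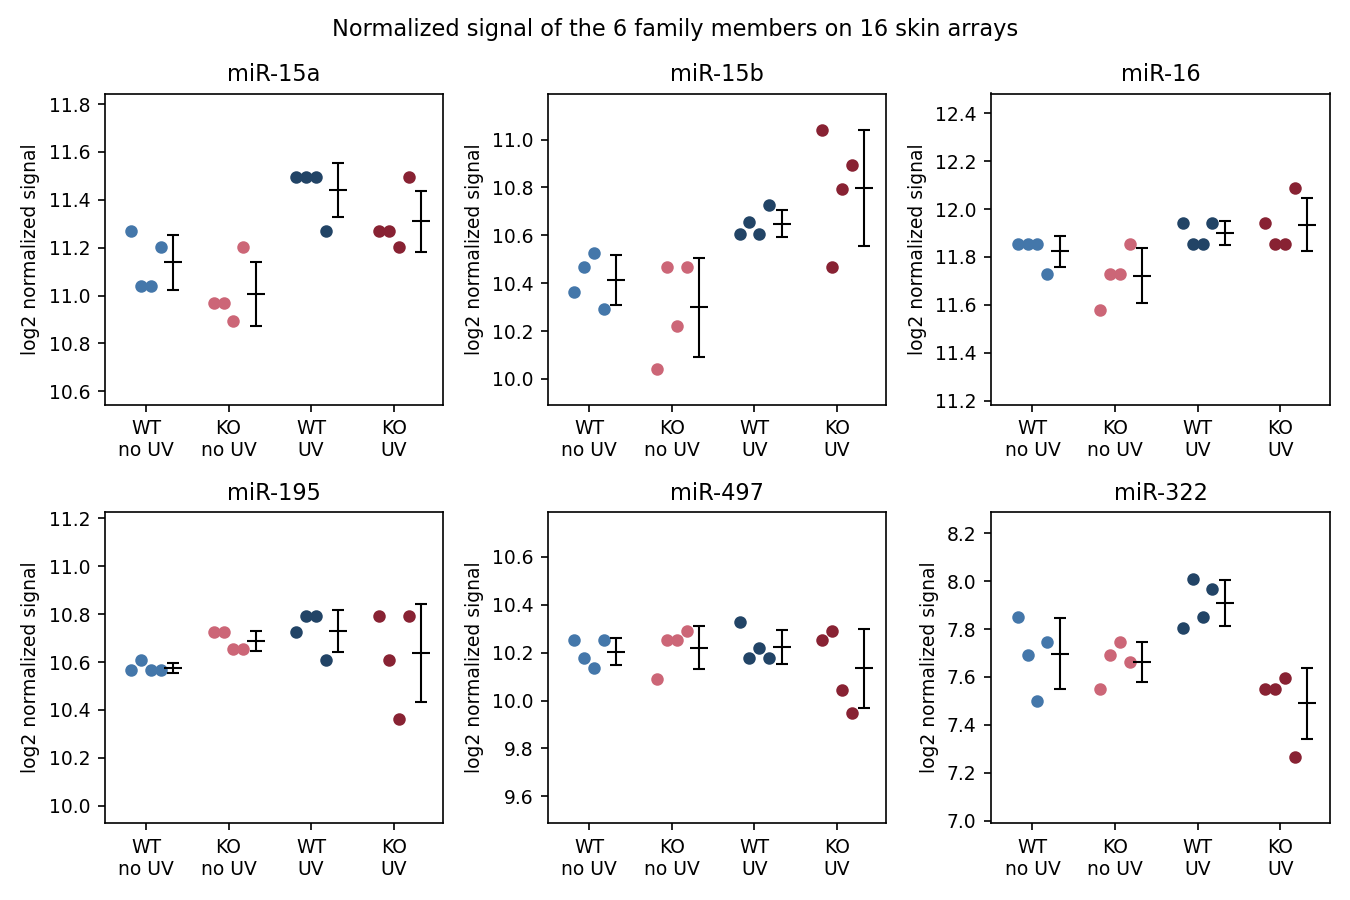
Log2 normalized signal (y axis) of the 6 members in the 4 groups (x axis), with one point per array in replicate order and the bar giving the mean ± SD of 4 arrays. All panels span the same log2 height around their own centre; miR-322 in KO UV (7.27 to 7.59) lies below WT UV (7.80 to 8.01), and the irradiated miR-15b arrays in WT (10.61 to 10.72) lie above the non-irradiated ones (10.29 to 10.53).

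The comparison of KO with WT without irradiation asked whether loss of Ppard alone moved the family. No member passed the test. The limma model gave log2 differences of KO minus WT from -0.13 for miR-15a (SE 0.0853, adjusted p = 0.486) to 0.11 for miR-195 (adjusted p = 0.513). MiR-15b and miR-16 stood at -0.11 and -0.10, miR-322 at -0.04 and miR-497 at 0.02. The median of the 6 members was -0.07, beside 0 over the 228 miRNAs tested. Limma called 0% of those 228 in this contrast, 36 of them had an unadjusted p under 0.05, and none of these 36 was a member. Without WT no UV replicate 2 or KO no UV replicate 4, 16 and 4 miRNAs were called, none of them a member. For miR-15a the 95% confidence interval of the difference ran from -0.32 to 0.05, and for miR-322 from -0.22 to 0.15. Without any normalization miR-15a, miR-15b, miR-16 and miR-322 turned positive while the median of all tested miRNAs moved to 0.52, and relative to that median they stood at -0.21, -0.12, -0.11 and -0.02.

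After 12 weeks of UVB, miR-322 was the one member called between genotypes, and it was lower in KO. Its mean log2 level was 7.91 ± 0.0965 (SD, n = 4) in WT UV and 7.49 ± 0.150 in KO UV, a difference of -0.42 (SE 0.0852, limma adjusted p = 0.0136). KO skin thus had 0.748 of the WT signal, below the 1.5-fold change that the methods required for selection. In this contrast 2.19% of the tested miRNAs were called, all of them lower in KO. The other 5 members lay between -0.13 (miR-15a, adjusted p = 0.765) and 0.15 (miR-15b, adjusted p = 0.808). For miR-16 the difference was 0.04 with a 95% confidence interval from -0.10 to 0.17. The member median was -0.09, beside 0 over all tested.

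Both miR-322 probes gave the difference, at -0.40 and -0.43. It was negative under all 11 alternatives, from -0.68 to -0.32. Among these, the changed floor, filter, replicate block and choice of groups left it at -0.42 and could not turn its sign. It was called under 2 of the 11, quantiles within each slide and no detection filter, with limma adjusted p from 0.0230 to 0.998 over the 11. The call was lost, among others, with the authors' normalized table (-0.36, adjusted p = 0.0802), with 75th percentile scaling over all miRNAs (-0.40, adjusted p = 0.130) and with the slide row as a covariate (-0.39, adjusted p = 0.424). Leaving out any 1 of the 16 arrays kept the call, with adjusted p from 0.00595 to 0.0489. KO UV replicate 4 was the lowest array of its group at 7.27, and the other 3 arrays, at 7.55 to 7.59, were also below the lowest WT UV array at 7.80.

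UVB in WT skin went with a higher miR-15a. The log2 difference, UV minus none, was 0.30 (SE 0.0853, limma adjusted p = 0.0270), from 11.14 ± 0.116 to 11.44 ± 0.112 (SD, n = 4), and both probes gave it, at 0.29 and 0.31. It was the single member called, in a contrast in which 16.2% of the tested miRNAs were called and 9.21% were called higher. All 6 members had positive differences, as did 46.5% of all tested miRNAs. The 2 probes disagreed in sign for miR-16 (-0.03 and 0.12) and for miR-497 (-0.11 and 0.07). The log2 ratio of probe 1 to probe 2 moved by -0.14 for miR-15b and -0.15 for miR-16. It moved by -0.17 for miR-195 and -0.19 for miR-497, against -0.02 for miR-15a and 0.03 for miR-322. The member median was 0.18, beside 0 over all tested. MiR-15b stood at 0.24 (adjusted p = 0.187) without overlap between its groups, and was called in place of miR-15a when only the groups compared were fitted (adjusted p = 0.0467, against 0.0517 for miR-15a). In the full fit the next members were miR-322, at 0.21 (unadjusted p = 0.0285, adjusted p = 0.104), and miR-195, at 0.15 (adjusted p = 0.205). MiR-16 and miR-497 stood at 0.08 and 0.02. The signs of miR-16, miR-195 and miR-497 depended on the scaling. MiR-16 became negative under both 75th percentile scalings (-0.13 and -0.01). It was also negative under quantiles taken within each slide, where it was called lower (-0.20, limma adjusted p = 0.0485). MiR-195 became negative under 75th percentile scaling over the miRNAs detected on all arrays (-0.00), and miR-497 under quantiles within each slide (-0.04). The median of all tested miRNAs was itself -0.10 under that 75th percentile scaling and -0.15 under quantiles within each slide. Relative to it, miR-16 stood at -0.03 and -0.04, miR-195 at 0.10 under the former and miR-497 at 0.11 under the latter. Quantiles within each slide called 59 of the tested miRNAs.

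The miR-15a call in WT held under 5 of 11 alternatives, with adjusted p from 0.0381 to 0.413. Its difference stayed positive in all of them but ran from 0.10 to 0.49. The changed floor, filter, replicate block and choice of groups left the difference as it was, so they could not turn its sign. The lowest values were 0.10 under 75th percentile scaling over the miRNAs detected on all arrays and 0.11 under quantiles within each slide. Relative to the median of all tested miRNAs in those settings, miR-15a stood at 0.20 and 0.27. The call was lost when WT no UV replicate 2 or 3 was left out (limma adjusted p = 0.0733 and 0.0804). It was also lost when WT UV replicate 1, 2 or 3 was left out (limma adjusted p = 0.0737, 0.0731 and 0.0735).

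In KO skin the 3 members of the chromosome 14 and chromosome 3 loci rose with UVB. MiR-15b rose by 0.50 (SE 0.117, limma adjusted p = 0.0107), from 10.30 ± 0.207 to 10.80 ± 0.243 (SD, n = 4), which is 1.41-fold and the largest of the 30 member differences. MiR-15a rose by 0.30 (SE 0.0853, adjusted p = 0.0211), from 11.01 ± 0.134 to 11.31 ± 0.128. MiR-16 rose by 0.21 (SE 0.0621, adjusted p = 0.0244), from 11.72 ± 0.113 to 11.94 ± 0.110. All 3 directions turned when no normalization was applied, to -0.03, -0.25 and -0.40, where the median of all tested miRNAs was -0.48, and relative to that median the members stood at 0.45, 0.23 and 0.08. MiR-16 also turned under quantiles within each slide, to -0.05. The median of all tested miRNAs was then -0.12, and miR-16 stood at 0.07 relative to it. In this contrast 29.8% of the tested miRNAs were called and 18.4% were called higher, so calls were common outside the family too. The 68 calls behind that share became 43, 35 and 45 without KO no UV replicate 1, KO no UV replicate 3 or KO UV replicate 1.

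No member of the other loci was called. In KO, UV minus none was -0.05 for miR-195 (adjusted p = 0.668), -0.09 for miR-497 (adjusted p = 0.391) and -0.17 for miR-322 (adjusted p = 0.147). Their 95% confidence intervals all included 0, and that of miR-322 ran from -0.36 to 0.01. With quantiles taken within each slide, miR-195 and miR-322 were called lower, at -0.19 (limma adjusted p = 0.0451) and -0.35 (limma adjusted p = 0.0118). The median of all tested miRNAs was then -0.12, and relative to it these members stood at -0.07 and -0.23. In that setting 80 of the tested miRNAs were called. Without this change, the median over the 6 members was 0.08, beside 0 over all tested.

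The 3 calls in KO differed in how they held. MiR-15b was called under 8 of 11 alternatives, with adjusted p from 0.00613 to 0.923, and without any 1 of the 16 arrays. MiR-15a was called under 4 of 11 (adjusted p from 0.00618 to 0.591), and was lost without KO no UV replicate 1 or 3 (adjusted p = 0.0515 and 0.0718). MiR-16 was called under 1 of 11 (adjusted p from 0.0375 to 0.711), and was lost without KO no UV replicate 1 or 3 (adjusted p = 0.0700 and 0.0556) and without KO UV replicate 1 or 4 (adjusted p = 0.0523 and 0.0525). Its 2 probes gave 0.10 and 0.25, against 0.25 and 0.34 for miR-15a and 0.42 and 0.54 for miR-15b.

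**Figure D2:**
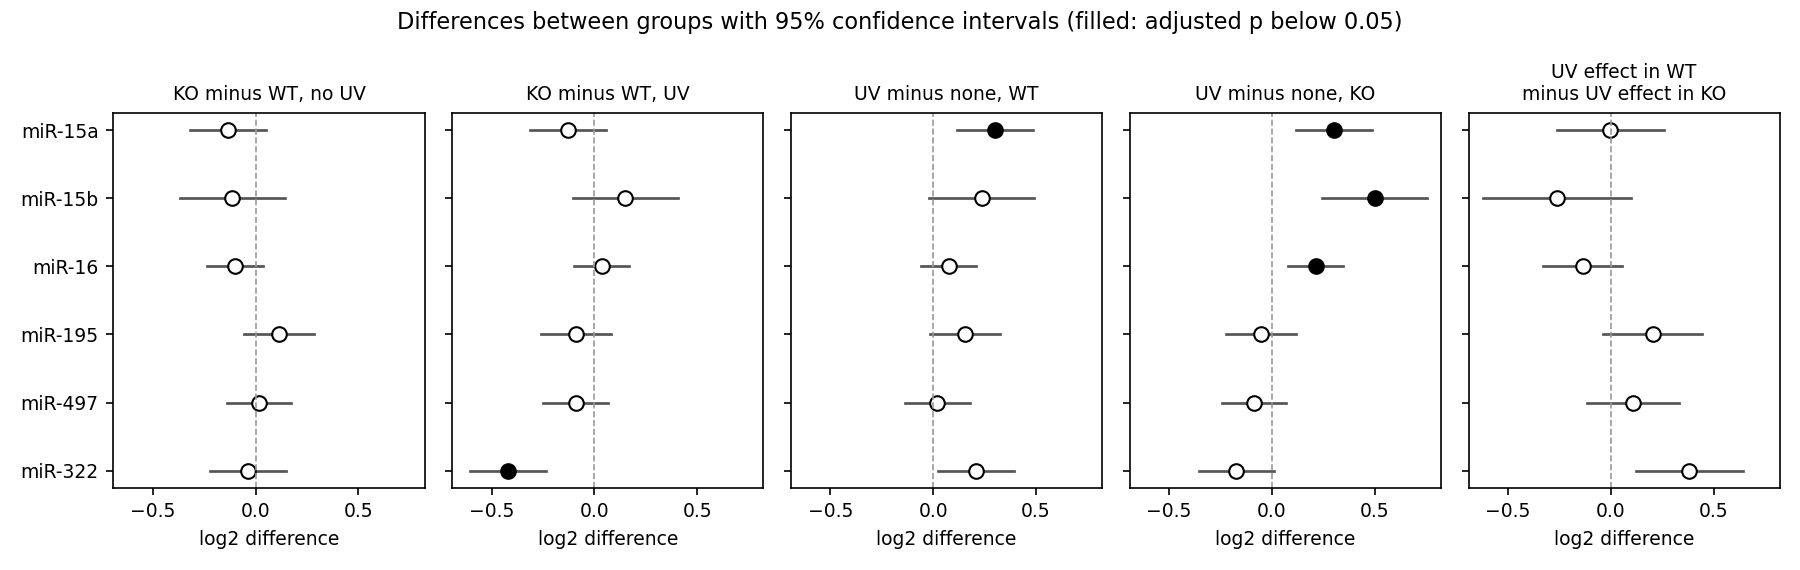
Log2 differences (x axis) of the 6 members in the 5 contrasts, with the limma 95% confidence interval as a line and a filled point where the adjusted p over 228 miRNAs was below 0.05. Filled points are miR-322 for KO minus WT after UV, miR-15a for UV in WT, and miR-15a, miR-15b and miR-16 for UV in KO; without normalization the last 3 turn negative.

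**Figure D3:**
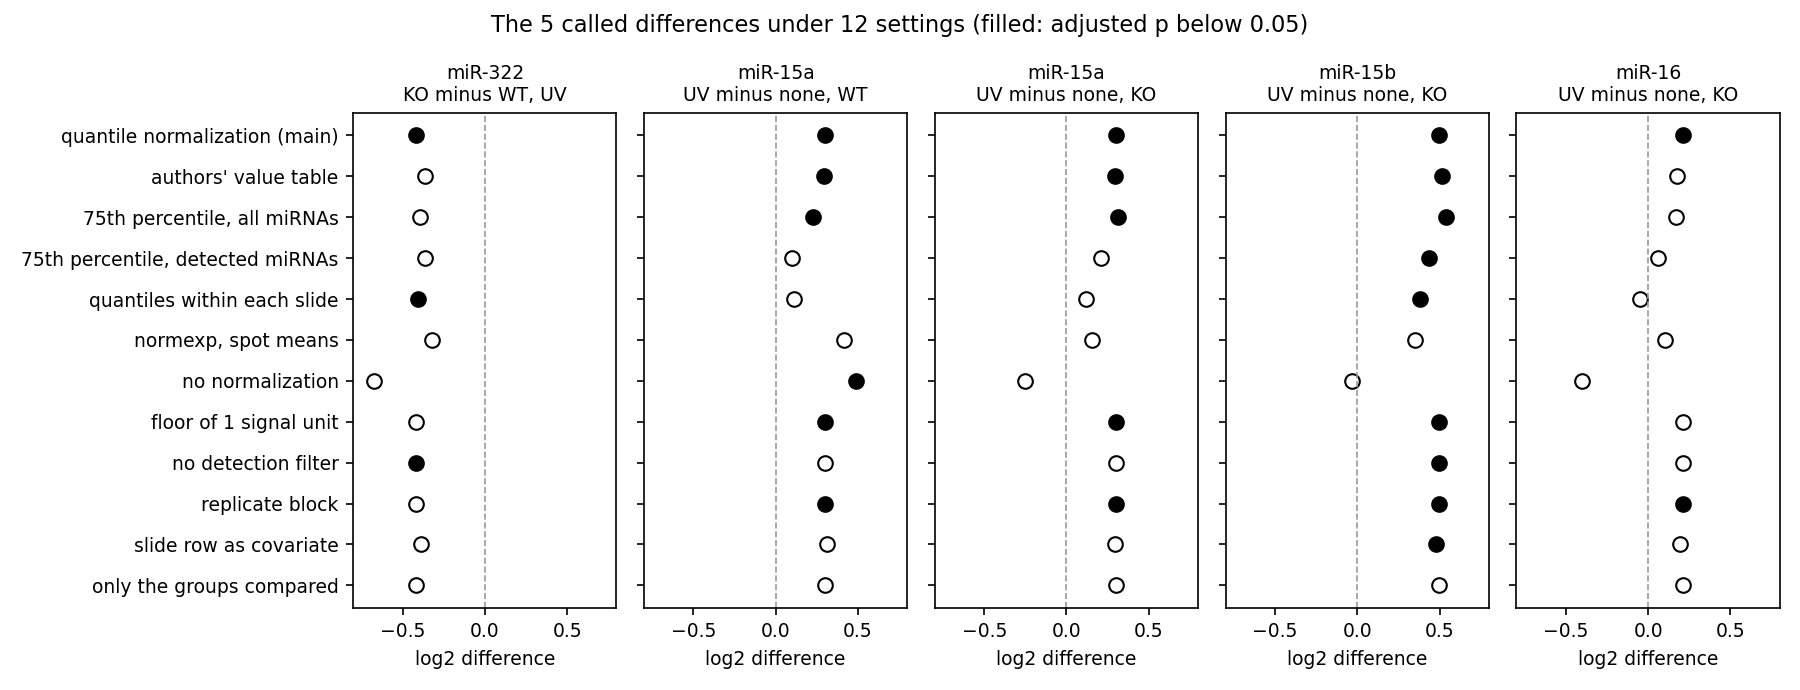
The 5 called differences (one panel each, log2 difference on the x axis) under 12 settings (y axis), filled where the adjusted p was below 0.05. MiR-322 stays left of 0 in all 12 and is filled in 3, while miR-15a, miR-15b and miR-16 in KO cross 0 without normalization, and miR-16 also with quantiles within each slide. Floor, filter, replicate block and choice of groups leave the difference of the main setting unchanged.

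Whether UVB acted differently in the genotypes was tested as the difference between the UV effect of WT and that of KO. No member was called, in a contrast in which limma called 2.19% of the tested miRNAs, 5 in number and 1 to 12 when single arrays were left out. MiR-322 came closest, with a difference of 0.38 (SE 0.120, limma unadjusted p = 0.00743, adjusted p = 0.130) made of 0.21 in WT and -0.17 in KO. It was the one member among the 29 tested miRNAs with an unadjusted p under 0.05. MiR-15b stood at -0.26 (adjusted p = 0.583), miR-195 at 0.20 (adjusted p = 0.498), miR-16 at -0.14 (adjusted p = 0.583) and miR-497 at 0.11 (adjusted p = 0.742). MiR-15a, called in both genotypes, had a difference of -0.00 (SE 0.121) with a 95% confidence interval from -0.26 to 0.26. Without normalization all 6 members were called, but so were 138 of the 228 tested miRNAs. The median of all tested miRNAs then stood at 0.77 and miR-322 at 0.41 above it.

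Ratios between members within an array do not depend on how the array was scaled. They compare members of different loci, except for miR-497 over miR-195, which share a locus. Where miR-16 is the denominator, its signal joins both of its loci. The 4 ratios of total gene signal were tested in the 5 contrasts by exact two-sided permutation, and none of the 20 tests passed after Benjamini-Hochberg adjustment. The smallest p that 4 against 4 arrays allow is 0.0286. The log2 ratio of miR-322 to miR-16 was -3.99, -3.88, -4.00 and -3.98 in WT UV and -4.31, -4.26, -4.30 and -4.72 in KO UV. It was -4.25, -4.15, -4.32 and -3.99 in WT no UV and -4.06, -4.08, -3.99 and -4.24 in KO no UV. KO UV thus lay below WT UV on every array, and below KO no UV by a narrow margin (-4.26 against -4.24), while it overlapped WT no UV. The difference was -0.43 for KO minus WT and -0.31 for UV minus none (exact permutation p = 0.0286 and adjusted p = 0.188 for each). How many other pairs of miRNAs separate in this way is not given here. The change of this ratio with UV in WT minus that in KO was 0.52 (exact permutation p = 0.00449, adjusted p = 0.0898). With single arrays left out, its adjusted permutation p fell under 0.05 in 2 cases only. These were WT no UV replicate 4 (0.58, adjusted p = 0.0327) and KO no UV replicate 4 (0.57, adjusted p = 0.0490). Leaving out any other array kept it from passing.

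The near-identical pair miR-195 and miR-16 gave a log2 ratio of -1.31, -1.41, -1.23 and -1.21 in WT no UV and -1.19, -1.04, -1.13 and -1.28 in WT UV. In KO it was -0.94, -1.17, -1.02 and -1.28 without irradiation and -1.07, -1.21, -1.44 and -1.34 after it, so all groups overlapped. The ratio stood 0.13 higher with UV in WT and at -0.17 in KO, a difference of 0.30 between the genotypes (exact permutation p = 0.0376, adjusted p = 0.188). The chromosome 11 neighbours miR-497 and miR-195 kept the narrowest range, with differences from -0.09 to 0.03 over the 5 contrasts (lowest exact permutation p = 0.314). Between the paralogues miR-15a and miR-15b the differences ran from -0.22 to 0.12 (lowest exact permutation p = 0.171). KO UV was the most spread group of that pair, at 0.25, 0.72, 0.44 and 0.77.

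**Figure D4:**
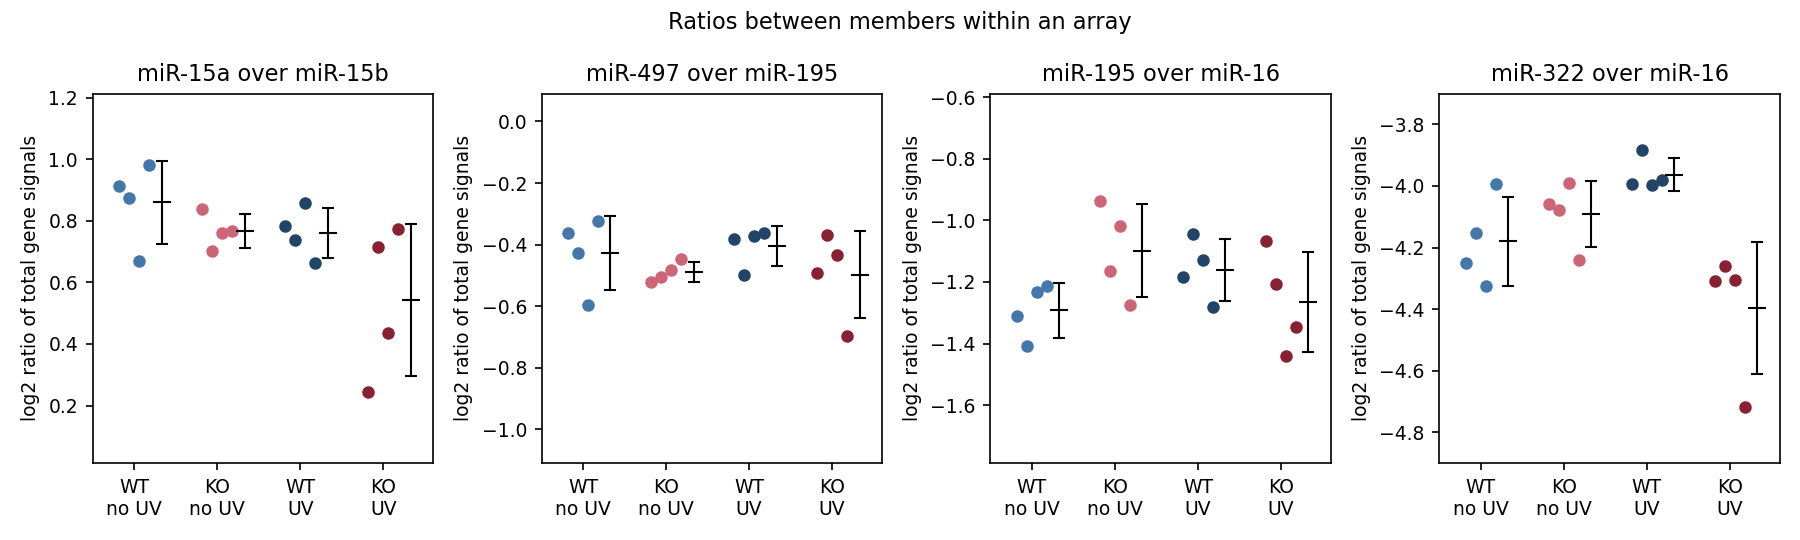
Log2 ratio of total gene signals within each array (y axis) for 4 pairs of members in the 4 groups (x axis), one point per array in replicate order, with the mean ± SD of 4 arrays. All panels span the same log2 height; the ratio of miR-322 to miR-16 in KO UV (-4.72 to -4.26) lies below WT UV (-4.00 to -3.88), and the other 3 ratios overlap between the genotypes after irradiation.

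Across the 16 arrays the members fell into unlike patterns. The following correlations describe normalized levels over arrays that share slides, and carry no test. MiR-15b and miR-16 had the highest Pearson r of any pair of members, 0.84, followed by miR-15a and miR-16 at 0.70 and miR-15a and miR-15b at 0.59. MiR-322 and miR-497, from different chromosomes, stood at 0.50, whereas the neighbours miR-195 and miR-497 stood at 0.10 and miR-322 and miR-16 at -0.16. Tied ranks and narrow spans limit such r values. MiR-195 had an SD of only 0.0203 in WT no UV and 0.0412 in KO no UV. All 6 members have the same seed, so these patterns differ among miRNAs with the same seed.

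Among 161 other miRNAs detected on all 16 arrays, those most like miR-15a were miR-34b-5p (r = 0.85), miR-31* (0.83) and miR-31 (0.77). Within the 8 irradiated arrays these stood at 0.41, 0.10 and -0.63, and within the 8 non-irradiated ones at 0.79, 0.73 and 0.68. Those most like miR-15b were miR-203* (0.82), miR-203 (0.80), an miRNA of differentiating keratinocytes, and miR-106b (0.79), at 0.71, 0.65 and 0.53 within the irradiated and 0.30, 0.59 and 0.62 within the non-irradiated arrays. For miR-16 they were let-7f (0.88), miR-92a (0.75) and miR-203 (0.75), at 0.79, 0.16 and 0.86 within the irradiated and 0.89, 0.73 and 0.22 within the non-irradiated arrays. MiR-322 was most like miR-199b (0.72), miR-148a (0.70) and miR-338-3p (0.61), at 0.87, 0.80 and 0.84 within the irradiated and 0.62, 0.86 and 0.49 within the non-irradiated arrays. MiR-497 was most like miR-152 (0.62), miR-99a (0.61) and miR-29a (0.55), at 0.90, 0.75 and 0.82 within the irradiated and 0.76, 0.50 and 0.48 within the non-irradiated arrays. MiR-195 had the least close companions, miR-181c (0.52), miR-200a (0.50) and miR-130a (0.47), at 0.62, 0.48 and 0.41 within the irradiated and 0.18, 0.62 and 0.74 within the non-irradiated arrays.

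Other products of the same precursors and clusters were hardly seen. A list of 14 held the 6 star strands of the members and 8 miRNAs of the miR-322 cluster on chromosome X, including miR-503, miR-351 and the miR-450 and miR-542 pairs. Of these, 12 were on the array, 8 were detected on no array and 4 on 1 or 2 arrays, and none met the detection rule. Their highest signal was 22.4 units, for miR-450a-5p, and miR-503 was detected on 1 array. The genotype difference of miR-322 could therefore not be compared with that of its cluster.

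Levels of cell type marker miRNAs moved with some of the same contrasts, and their part in the family's differences was not tested. All 7 keratinocyte miRNAs, such as miR-203 and miR-205, were detected on 16 of 16 arrays, with 4 of 7 called higher with UV in WT (median 0.44) and 6 of 7 in KO (median 0.39). Their summed signal was 21539 to 25477 units in WT no UV against 26081 to 31708 after irradiation, and 22225 to 27764 in KO no UV against 29320 to 43027. All 4 skeletal muscle miRNAs, miR-1, miR-133a, miR-133b and miR-206, were also detected on every array, and 4 of 4 were called lower with UV in KO (median -1.04) with none called in WT. Their sum was 40655 to 50330 units in KO no UV against 19464 to 24489 after irradiation, and 20453 to 41168 in WT no UV against 21899 to 25985. Between the genotypes after irradiation 0 of 25 tested markers of the 5 lists was called, beside 2.19% of all tested miRNAs. With so few calls at all, that count says little about the markers. The list medians ran from -0.22 for muscle and leukocyte miRNAs to 0.06 for keratinocyte miRNAs. Of the leukocyte miRNAs 2 of 6 were called lower with UV in WT, and in KO 1 was called higher and 1 lower. Among fibroblast and vessel miRNAs 1 of 6 was called higher and 1 lower in WT, and 1 higher and 2 lower in KO. Of the erythrocyte miRNAs 1 of 2 was called lower in KO. Of all tested miRNAs, 16.2% were called with UV in WT and 29.8% with UV in KO, in either direction. In the difference of UV effects, where miR-322 stood at 0.38, 1 of 6 fibroblast and vessel miRNAs was called higher. No other marker was called, beside 2.19% of all tested miRNAs. The list medians there were 0.91 for muscle, 0.41 for erythrocyte, 0.38 for fibroblast and vessel, 0.04 for keratinocyte and -0.17 for leukocyte miRNAs. In KO minus WT without irradiation no marker was called, beside 0% of all tested miRNAs. The list medians were 0.73 for muscle, 0.41 for erythrocyte, 0.34 for fibroblast and vessel, 0.19 for keratinocyte and -0.37 for leukocyte miRNAs.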

How the data were processed

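Dorsal skin RNA from 16 samples was hybridised to 1 Cy3-labelled Agilent mouse miRNA array each. Per the file headers, the scanning program (Agilent Feature Extraction 9.5.3.1) took a fitted background off every spot and added up the spots of a miRNA, and the deposited scanner files hold these total gene signals as intensity on a linear scale. A deposited table of log2 signals, normalized by the authors with an invariant procedure and quantiles, served as an alternative. Groups and replicate numbers came from the sample titles.

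Intensities were quantile normalized (limma 3.58.1, R 4.3.3), raised to a floor of 19.4 units where lower (the 5th percentile of detected signal on an array, median over arrays) and log2 transformed. A miRNA entered the test if every array of some group detected it, which 228 did. They were fitted with lmFit and eBayes on group means, and a call needed an adjusted p (Benjamini-Hochberg, all 228) below 0.05. The model was tested on simulated data. Alternatives changed the normalization, signal, floor, filter, covariates and arrays. The methods' own selection asked for p below 0.001 and 1.5-fold. Members, marker lists and tests were chosen with earlier results of these data known. Named miRNAs were all members, the 3 others most like each by Pearson r, and products of the same precursors or clusters.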

Additional observations from a re-analysis of the deposited data

Results flagged for a closer look

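In 7 of 40 groups of 4 values, 1 array stood apart from the other 3 by Dixon's criterion. Chance flags about 1 in 20 groups of untied values, but 18 of the 24 groups of member levels held tied values, to which that rate does not apply. For miR-322 the lowest array of KO UV, replicate 4, was at a log2 level of 7.27, and the same array had the lowest log2 ratio of miR-322 to miR-16, -4.72. In WT UV the highest ratio of miR-322 to miR-16 was -3.88 in replicate 2, and that replicate also had the lowest ratio of miR-497 to miR-195, -0.50. MiR-15a was lowest in WT UV replicate 4 at 11.27, where the other 3 arrays shared the value of one rank. MiR-16 was lowest in WT no UV replicate 4 at 11.73, and miR-195 highest in WT no UV replicate 2 at 10.61, again beside 3 arrays of equal rank.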

How the results depend on the processing

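Over the 6 members and 5 contrasts, the alternatives other than leaving out an array gave 278 values with the same sign on the same side of the threshold. Of the others, 36 lost and 12 gained a call with the sign kept, and 28 changed sign, among which 4 lost and 5 gained a call. Changes of filter, floor, replicate block, groups fitted or selection rule left each member's difference as it was, so its sign could not change there. The number of members called between genotypes after UV, 1, became 0 under 75th percentile scaling over either set of miRNAs, without normalization, with the authors' table, with normexp on spot means, with a floor of 1 signal unit, with the slide row as a covariate, with only the groups compared, with the replicate block and with the methods' selection. The number called with UV in WT, 1, became 0 under 75th percentile scaling over miRNAs detected on all arrays, normexp, no detection filter, the slide row and the methods' selection, and 2 without normalization. It stayed at 1 with another member under only the groups compared (miR-15b) and quantiles within each slide (miR-16, lower). The number called with UV in KO, 3, became 1 under 75th percentile scaling over miRNAs detected on all arrays, no detection filter and the slide row, and 0 under normexp, only the groups compared and the methods' selection. It became 2, without miR-16, under 75th percentile scaling over all miRNAs, with the authors' table and with a floor of 1 signal unit. It stayed at 3 without normalization, but for miR-195, miR-322 and miR-497, all lower, and under quantiles within each slide for miR-15b, higher, and miR-195 and miR-322, lower. Without normalization 3 members were called between genotypes without UV and 6 in the difference of UV effects. Of the 228 tested miRNAs, that setting called 111 and 138 in these contrasts, 43 with UV in WT and 130 with UV in KO. Quantiles within each slide called 59 with UV in WT and 80 with UV in KO. Leaving out each array in turn gave 0 to 1 called members with UV in WT and 1 to 3 with UV in KO.

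Signs changed as follows, in log2 units. In KO minus WT without UV, no normalization gave 0.31 for miR-15a, 0.40 for miR-15b, 0.41 for miR-16 and 0.50 for miR-322. Normexp gave 0.059 for miR-15a, 0.90 for miR-15b and 0.37 for miR-322, and 75th percentile scaling over all miRNAs gave -0.0046 for miR-497. In KO minus WT after UV, no normalization gave -0.22 for miR-15b and -0.24 for miR-16, and miR-16 was at -0.077 with normexp and -0.0016 with the slide row. For UV in WT, 75th percentile scaling over miRNAs detected on all arrays gave -0.13 for miR-16 and -0.0032 for miR-195, the same over all miRNAs gave -0.0066 for miR-16, and quantiles within each slide gave -0.20 for miR-16 and -0.044 for miR-497. For UV in KO, no normalization gave -0.25 for miR-15a, -0.030 for miR-15b and -0.40 for miR-16, quantiles within each slide gave -0.051 for miR-16, and 75th percentile scaling over all miRNAs gave 0.0016 for miR-195. In the difference of UV effects, no normalization gave 0.74 for miR-15a, 0.62 for miR-15b and 0.66 for miR-16, normexp gave 0.26 for miR-15a and 0.82 for miR-15b, and the slide row gave 0.020 for miR-15a. With quantile-normalized values in the ratios, miR-15a over miR-15b was 0.066 for UV in WT, and miR-497 over miR-195 was 0.00013 for KO minus WT after UV, -0.13 for UV in WT and -0.10 in the difference of UV effects. The cause was not tested. Without normalization the median of all tested miRNAs moved, to 0.52 in KO minus WT without UV and -0.48 for UV in KO. Members moved relative to that median too. MiR-16 stood at 0.08 above it for UV in KO, against 0.21 as reported, and miR-15b at 0.38 above it for UV in WT, against 0.24. The median of all tested miRNAs also moved under quantiles within each slide, to -0.15 for UV in WT and -0.12 for UV in KO. Under 75th percentile scaling over miRNAs detected on all arrays it stood at -0.10 for UV in WT. With normexp it stood at 0.16 in KO minus WT without UV and 0.21 in the difference of UV effects. Normexp also moved members without a change of sign: miR-195 to 1.07 and miR-497 to 0.92 in KO minus WT without UV, miR-15b to 1.17, miR-195 to 1.11 and miR-497 to 0.93 for UV in WT, and miR-195 to 1.18, miR-497 to 1.02 and miR-322 to 0.69 in the difference of UV effects. Its fitted background was below 0 on 3 arrays (-735 and -508 units on WT no UV replicates 2 and 3, and -117 on KO UV replicate 1) and between 2.10 and 125 on the other 13.

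With arrays left out in turn, values near 0 spanned it. MiR-322 ran from -0.10 to 0.014 and miR-497 from -0.0069 to 0.061 in KO minus WT without UV. MiR-195 ran from -0.14 to 0.0016 and miR-16 from -0.014 to 0.063 in KO minus WT after UV. MiR-497 ran from -0.012 to 0.039 for UV in WT, miR-195 from -0.10 to 0.041 for UV in KO, and miR-15a from -0.067 to 0.066 in the difference of UV effects. The ratio of miR-497 to miR-195 ran from -0.033 to 0.059 for UV in WT, from -0.052 to 0.057 for UV in KO and from -0.034 to 0.076 in the difference of UV effects.

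Same-numbered samples of different groups did not deviate together throughout: 15 of 24 pairs had r over 0.1 (range -0.35 to 0.38). Their median r was 0.16, against -0.05 for differently numbered samples of different groups. Whether the numbers pair samples is thus not settled, and the reported fit did not use them. With the replicate block, 0, 1 and 3 members were called for KO minus WT after UV, UV in WT and UV in KO. MiR-322 in KO minus WT after UV then had an adjusted p of 0.0587. Over all tested miRNAs the alternatives other than left-out arrays gave 0 to 111 calls for KO minus WT without UV (0 as reported), 0 to 5 for KO minus WT after UV (5), 2 to 59 for UV in WT (37), 16 to 130 for UV in KO (68) and 0 to 138 for the difference of UV effects (5). The block gave 4, 40 and 61 calls against 5, 37 and 68, of which 4, 35 and 59 were shared, and 1 against 5 in the difference of UV effects. With no detection filter, most fitted variances were 0, so the p-values of that setting are weak ground. The 4 arrays per group limit the precision, and no member difference reached 1.5-fold as reported, whereas 10 of 30 did under normexp and 10 of 30 without normalization.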
